A study of Mus musculus with 14 samples.

Results

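Clone-named transcripts are loci that the annotation used for counting lists only under the name of a bacterial artificial chromosome clone, such as RP23-4F16.15, because manual annotators had drawn a transcript there without giving it a gene symbol. The 872 loci described here carry a single RP23- or RP24- name, reached 0.5 FPKM (fragments per kilobase of transcript, scaled to the size of the library) in at least 3 of 14 libraries, and lie in a range that overlaps no locus typed as protein-coding in the authors' matrix. They were drawn from 67811 loci in all, of which 22173 carry a clone name and 1788 of those passed the same level. The level was read in all libraries together, so that the choice of members used measured values. With 0.25 FPKM in place of 0.5 there would have been 1346 members, and with 1 FPKM there would have been 572.

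The RNA came from whole heads, brain included, of mouse embryos of the C57BL/6J strain at stage E12.5. There were 6 Zcchc8-/- embryos (KO), 3 Zcchc8+/- embryos (HET) and 5 Zcchc8+/+ embryos (WT), each with 1 stranded mRNA library. The labels give neither the part of Zcchc8 that the allele alters nor the litters, so that p-values measure the spread between these samples.

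ZCCHC8 is a zinc-knuckle protein that holds together the nuclear exosome targeting complex with the RNA-binding protein RBM7 and the RNA helicase MTR4 (Skiv2l2). In mammalian cells this complex hands newly made, mostly unspliced and short-lived RNAs to the nuclear RNA exosome, which degrades them from the 3′ end. Among its known substrates are promoter upstream transcripts, which start close to the start of a coding gene and run away from it on the opposite strand.

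Zcchc8 itself (chr5:123698294-123721100, mm10) was lower in KO heads. Its level was between 9.27 and 20.6 FPKM in KO heads, with a mean of 15.5 ± 3.91 (SD, n = 6), against 25.7 ± 1.64 FPKM in HET heads (SD, n = 3) and 39.7 ± 2.32 FPKM in WT heads (SD, n = 5). No KO value reached the WT values. The difference of KO from WT was -1.39 on the log2(FPKM + 0.1) scale (SE 0.15, limma, adjusted p = 2.1e-06, and two-sided exact permutation p = 0.00216). Of 25 other genes of the exosome and its adaptors that were tested, 1 was higher and 0 were lower in KO heads. Among all loci tested 19% were higher and 5.61% lower, and among protein-coding ones 7.07% were higher and 7.42% lower. The higher gene was Srrt, which encodes the cap-associated protein ARS2 and is counted in 1 locus with Mir7036. It averaged 143 ± 9.05 FPKM in KO heads and 116 ± 9.26 FPKM in WT heads (SD, n = 6 and 5, limma adjusted p = 0.0013). Its mean in HET heads was 102 FPKM. Rbm7 averaged 29.2 ± 2.0 FPKM in KO heads and 29.4 ± 1.35 FPKM in WT heads, and Skiv2l2 averaged 37.7 ± 2.71 FPKM in KO heads and 37.0 ± 1.43 FPKM in WT heads.

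Relative depth, estimated from the smallest values on a scale where replicate 1 of WT is 1, was 1.15 to 1.5 in KO, 1.23 to 1.32 in HET and 1.0 to 1.20 in WT libraries. By this estimate it was higher in every HET library than in any WT library, and KO overlapped both. The estimate rests on the most frequent ratio to replicate 1 of WT, shared by 2.4% to 8.5% of the low loci used. The order is therefore approximate. Markers of some head tissues moved with the genotype. The summed level of 12 lens genes was 38.5 to 184 FPKM in KO heads and 138 to 193 FPKM in WT heads, with 10 of 11 tested members lower. The sum of 5 surface epithelium genes was 41.0 to 54.3 FPKM in KO heads and 60.5 to 84.1 FPKM in WT heads, with 3 of 4 tested members lower. The sum of 4 choroid plexus genes was 61.5 to 112 FPKM in KO heads and 107 to 149 FPKM in WT heads, with 3 of 4 tested members lower. The sums of 6 neural progenitor genes overlapped, at 1400 to 1670 FPKM in KO heads and 1500 to 1650 FPKM in WT heads, with 1 of 6 higher, and no marker of these lists was at 0 in every library. In whole heads, fewer cells of a type and less RNA per cell cannot be told apart, and the part of these shifts in the results on the clone-named transcripts was not tested.

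The name "stand-alone" held for part of the loci only. The clone names are absent from the current mouse annotation, so that the identity of each locus was read from its position in GENCODE M21 on the same build, mm10. The deposited range is that of a bundle of reads: 408 of the 872 loci had a range of their own, and 464 shared it with other loci. The 872 loci have 791 distinct ranges. For 308 of the 872 loci the range overlaps a gene that GENCODE lists as protein-coding. A total of 401 loci could be matched to exactly 1 GENCODE gene. Of these, 101 are protein-coding in GENCODE and 300 are not. The 300 hold 132 lincRNAs (long intergenic non-coding RNAs), 51 genes of the class TEC (models awaiting experimental support), 30 processed transcripts, 16 bidirectional promoter lncRNAs, 11 antisense RNAs, 59 pseudogenes and 1 of another class. The remaining 471 could not be tied to a single gene, 207 of them with a coding gene in their range and 264 without one.

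The sequences of 4 promoters are shown because a clone-named transcript starts inside each and runs away from the coding gene. They come from the RefSeq promoter table (GRCm38.p6), which held a window with both starts for 55 of 92 such loci, and each is written on the strand of the coding gene from 250 bases before its start. Capitals mark the stretch between the start of the clone-named transcript, which runs leftward from the first capital, and the start of the coding gene, which runs rightward from the last capital. The first 3 transcripts were higher in KO heads and the last was not.
Cnbp and RP23-4F16.15 (Gm44064), chr6:87851057-87851356, minus strand: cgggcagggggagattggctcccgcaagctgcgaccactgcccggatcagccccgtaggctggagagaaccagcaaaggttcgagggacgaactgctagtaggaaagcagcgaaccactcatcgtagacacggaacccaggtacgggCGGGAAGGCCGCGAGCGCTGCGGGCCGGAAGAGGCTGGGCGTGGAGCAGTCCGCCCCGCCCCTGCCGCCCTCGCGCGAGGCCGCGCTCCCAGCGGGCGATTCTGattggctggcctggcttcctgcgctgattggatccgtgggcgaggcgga
Cacybp and RP23-71J17.5 (4933417C20Rik), chr1:160212843-160213142, minus strand: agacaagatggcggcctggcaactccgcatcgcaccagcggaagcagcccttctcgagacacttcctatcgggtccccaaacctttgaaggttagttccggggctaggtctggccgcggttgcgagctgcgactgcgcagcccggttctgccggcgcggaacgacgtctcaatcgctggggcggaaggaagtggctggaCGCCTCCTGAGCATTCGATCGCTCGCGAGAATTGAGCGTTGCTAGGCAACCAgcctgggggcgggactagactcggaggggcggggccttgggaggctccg
Tle3 and RP24-473A18.2 (Gm10655), chr9:61372116-61372415, plus strand: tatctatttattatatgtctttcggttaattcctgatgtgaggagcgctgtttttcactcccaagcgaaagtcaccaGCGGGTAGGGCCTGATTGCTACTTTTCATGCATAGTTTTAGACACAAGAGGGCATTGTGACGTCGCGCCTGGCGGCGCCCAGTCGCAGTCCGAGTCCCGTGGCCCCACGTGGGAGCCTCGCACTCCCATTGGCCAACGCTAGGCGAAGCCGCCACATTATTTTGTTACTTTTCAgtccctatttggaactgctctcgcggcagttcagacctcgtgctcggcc
Kif3a and RP23-188H3.3 (A430108G06Rik), chr11:53567119-53567418, plus strand: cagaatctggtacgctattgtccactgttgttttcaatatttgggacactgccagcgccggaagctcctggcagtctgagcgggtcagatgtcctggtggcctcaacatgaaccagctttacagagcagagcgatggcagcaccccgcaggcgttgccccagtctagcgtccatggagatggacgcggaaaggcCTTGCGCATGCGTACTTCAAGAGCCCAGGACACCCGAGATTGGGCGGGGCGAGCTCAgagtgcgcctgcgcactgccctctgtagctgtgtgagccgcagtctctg

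By the RefSeq starts, which can differ from those of GENCODE used elsewhere, the stretch between the starts is 104 bases at Cnbp, 52 at Cacybp, 174 at Tle3 and 57 at Kif3a, each start included. The windows hold 32 CG dinucleotides at Cnbp, 30 at Cacybp, 21 at Tle3 and 18 at Kif3a, against a median of 7 in all 32851 RefSeq promoter windows of the same length. The median over the 55 windows was 26, with 26 in the 49 whose clone-named transcript was higher in KO heads and 31.5 in the 6 whose transcript was not. The letters TATAAA, searched on both strands, occur in 4 of the 55 windows (7.27%) and in 13.6% of all windows. None of the 4 printed windows holds them.

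The comparison of KO with WT asks what happens to these RNAs when ZCCHC8 is reduced. In KO heads 388 of the 872 clone-named loci were higher and 10 were lower than in WT heads (limma, Benjamini-Hochberg adjusted p below 0.05). Among all 18217 loci tested, 19% were higher and 5.61% were lower. Among the 11880 loci that the matrix types as protein-coding, 7.07% were higher and 7.42% were lower. Clone-named loci that overlap a coding locus gave about the same share as the stand-alone ones, with 47.5% of 916 higher. The median difference was 0.44 on the log2 scale over the 872 loci and 0.00 over all loci tested. After quantile normalization both medians were -0.05, with 228 of the 872 loci higher and 196 lower. Under that scaling more of all loci tested were lower than higher, whereas slightly more of the 872 were higher than lower. Without replicate 3 of KO, 17 loci were lower in place of 10. In 319 of the 872 every KO library lay above every WT library, which was so for 15.3% of all loci tested.

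Part of this count follows from how the loci were chosen, since the level could be reached in KO libraries alone, which favours loci that are higher there. That level was reached in at least 3 of the 5 WT libraries by 502 of the 872 loci, of which 130 were higher and 10 lower. Under the same condition 7.75% of 14780 loci were higher and 6.91% were lower. Of the 370 that did not reach the level in WT, 258 were higher and 0 were lower. This count was favoured by the choice and is not particular to clone-named loci. Of all 18217 loci tested, the 14780 at the level in WT held only 1146 of the 3463 higher ones. They held 1021 of the 1022 lower ones. Of the 415 loci with a mean of at least 1 FPKM over all libraries, 147 were higher and 8 lower, against 9.88% higher and 6.78% lower of all loci at that level.

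Counts by class of RNA included loci that passed the level through KO libraries alone. All 11 antisense RNAs were higher, with a median log2 difference of 2.05, and so were 15 of 16 bidirectional promoter lncRNAs, with a median of 1.82. TEC genes followed with 32 of 51 and a median of 1.39, processed transcripts with 20 of 30 and 0.79, and lincRNAs with 70 of 132 and 0.64. Pseudogenes were higher in 15 of 59, with a median of 0.18. Among loci at 0.5 FPKM in at least 3 WT libraries, 3 of 3 antisense RNAs and 5 of 6 bidirectional promoter lncRNAs were higher. At that level TEC genes were higher in 7 of 21 (median 0.25), processed transcripts in 7 of 16 (0.22), lincRNAs in 24 of 71 (0.20) and pseudogenes in 4 of 33 (-0.04), so that TEC genes, processed transcripts and lincRNAs had medians close to each other. The 101 loci matched to protein-coding genes had 15 higher and 3 lower, with a median of -0.01, and a median level of 4.46 FPKM in KO and 4.11 FPKM in WT heads. The strand setting of the counting is not stated, so that reads of overlapping genes on opposite strands may not have been told apart. The range of each matched locus, those of the 11 antisense RNAs included, overlapped no other GENCODE gene. The 264 unmatched loci with no coding gene in range gave 135 higher and 1 lower, and the 207 with a coding gene in range gave 75 higher and 4 lower. With the level read in WT, 37 of 116 (median 0.28) and 34 of 142 (median 0.05) were higher in the same order.

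**Figure D1:**
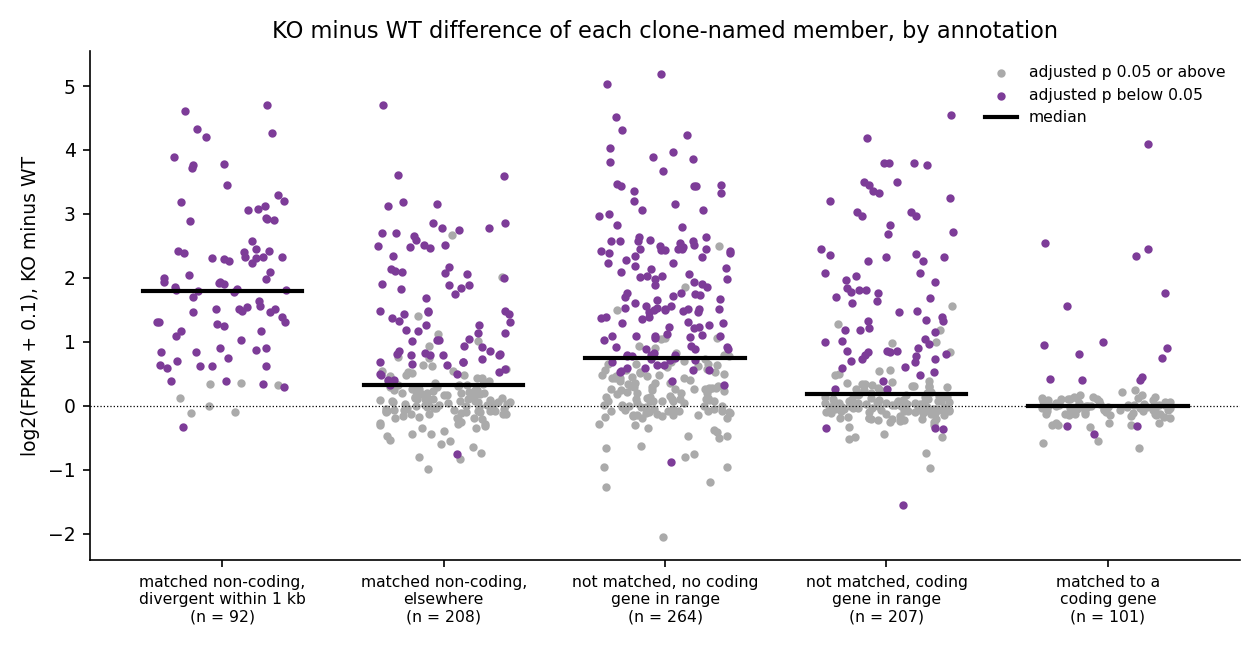
KO minus WT difference on the log2(FPKM + 0.1) scale (vertical axis) of each clone-named locus, grouped by its GENCODE M21 annotation (horizontal axis). Purple points have an adjusted p below 0.05 and black bars are medians, which run from 1.80 in divergent non-coding loci to -0.01 in loci matched to coding genes.

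The 300 matched non-coding loci were also grouped by their position relative to coding genes. A locus is called divergent here when it starts within 1 kb of the start of a coding gene, on the opposite strand and pointing away from it. There were 92 such loci, of which 84 were higher and 1 was lower in KO heads, with a median log2 difference of 1.80, or 0.82 after quantile normalization, where 55 were higher. Their median level was 1.48 FPKM in KO, 0.297 FPKM in HET and 0.276 FPKM in WT heads, and in 72 of them every KO library lay above every WT library. The other 208 matched non-coding loci had 79 higher and 1 lower, with a median of 0.33. Among loci that reached 0.5 FPKM in at least 3 WT libraries, 25 of 33 divergent loci and 25 of 118 others were higher, with medians of 0.70 and 0.10. The divergent group was drawn up after the values were known, and the difference between the groups is described without a test.

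The split by position was also counted within single classes. Divergent TEC genes were higher in 24 of 25, and TEC genes elsewhere in 8 of 26. Divergent lincRNAs were higher in 28 of 30, and lincRNAs elsewhere in 42 of 102. Processed transcripts differed less, with 10 of 14 divergent ones and 10 of 16 others higher. All 8 divergent antisense RNAs were higher, as were the 3 antisense RNAs elsewhere. Among loci at 0.5 FPKM in at least 3 WT libraries, TEC genes were higher in 4 of 5 divergent ones and 3 of 16 others, and lincRNAs in 10 of 12 divergent ones and 14 of 59 others. Processed transcripts showed no such split there, with 3 of 7 divergent ones (median 0.12) and 4 of 9 others (median 0.32) higher.

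Counted by the distance between the starts, in any orientation, 27 of 31 loci within 100 bases of the nearest coding start were higher, 44 of 48 at 101 to 300 bases and 14 of 14 at 301 to 1000 bases. Beyond this the share was smaller, with 14 of 23 at 1001 to 5000 bases, 40 of 118 at 5001 to 50000 bases and 24 of 66 farther away. With the level read in WT, the counts in order of distance were 9 of 13, 13 of 17, 3 of 3, 4 of 10, 15 of 70 and 6 of 38. Loci within 5 kb on the same strand as the coding gene gave 18 of 49 higher, with a median log2 difference of 0.29. Orientation could not be read for the unmatched loci. Of the unmatched loci without a coding gene in range, 35 of 50 with a coding start within 1 kb of the range were higher, against 10 of 22 at 1 to 5 kb and 90 of 192 farther away. With the level read in WT these were 11 of 21, against 1 of 11 and 25 of 84.

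**Figure D2:**
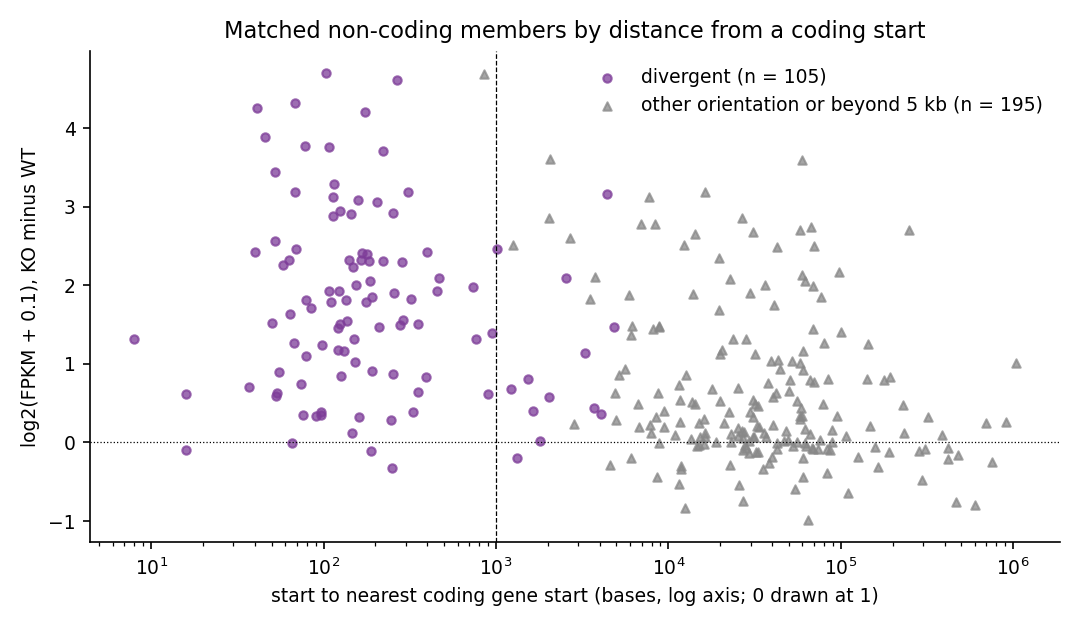
KO minus WT difference on the log2(FPKM + 0.1) scale (vertical axis) of the 300 matched non-coding loci against a distance in bases (logarithmic horizontal axis). The distance runs from the start of the locus to the start of the coding neighbour by which it was placed. For loci within 5 kb that are not divergent, this is the closest gene, whose start need not be the nearest. Circles are divergent loci, here with 13 more at 1 to 5 kb, and triangles are the others. The dashed line marks 1 kb, left of which most points lie above 0, with the triangle at the top being Gm37817 near Ybx1.

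The structure of the transcripts varied within the divergent group. Single-exon divergent loci were higher in 37 of 38, those with 2 exons in 31 of 34 and those with 3 or more exons in 16 of 20. The medians were 2.05, 1.55 and 1.17 on the log2 scale in the same order. With the level read in WT, 7 of 8, 10 of 13 and 8 of 12 were higher, with medians of 1.09, 0.87 and 0.50. Among the matched non-coding loci elsewhere there was no such order, with 29 of 97 single-exon loci, 21 of 36 with 2 exons and 29 of 75 with 3 or more exons higher.

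RP23-4F16.15, matched to the TEC gene Gm44064 (chr6:87851209-87852295, plus strand), starts 103 bases from Cnbp, which encodes a nucleic-acid-binding zinc finger protein. It ranged over 2.47, 4.11 and 5.85 FPKM (lowest, median and highest) in KO heads, against 0.0821, 0.0196 and 0.0917 FPKM in HET heads and 0.0599, 0.0515, 0.0117, 0.120 and 0.0627 FPKM in WT heads. Every KO library lay far above every HET and WT library. The log2 difference of KO from WT was 4.70 (SE 0.22, limma adjusted p = 3.1e-10), while Cnbp, read in the other direction from the promoter printed above, differed by 0.07 (SE 0.04, adjusted p = 0.228), with 237 ± 8.03 FPKM in KO and 225 ± 9.75 FPKM in WT heads.

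RP23-71J17.5, matched to 4933417C20Rik (chr1:160212943-160214816, plus strand), starts 68 bases from the GENCODE start of Cacybp, which encodes a calcyclin-binding protein. Its lowest, median and highest values in KO heads were 2.15, 4.67 and 5.73 FPKM, against 0.174, 0.172 and 0.142 FPKM in HET heads and 0.102, 0.0983, 0.190, 0.0790 and 0.154 FPKM in WT heads. The KO values do not overlap the others, and the lowest of them came from replicate 1. The log2 difference was 4.33 (SE 0.22, limma adjusted p = 6.4e-10), against 0.10 (SE 0.06, adjusted p = 0.273) for Cacybp, which averaged 72.7 ± 6.10 FPKM in KO and 67.7 ± 2.36 FPKM in WT heads.

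RP24-473A18.2, matched to the lincRNA Gm10655, starts 173 bases from Tle3, a transcriptional co-repressor of the Groucho family. It gave 2.82, 3.82 and 4.46 FPKM as lowest, median and highest value in KO heads, against 0.176, 0.145 and 0.109 FPKM in HET heads and 0.107, 0.145, 0.0946, 0.125 and 0.0541 FPKM in WT heads. The log2 difference was 4.2 (SE 0.16, limma adjusted p = 3.7e-11). Tle3 averaged 59.0 ± 2.68 FPKM in KO heads and 58.0 ± 4.44 FPKM in WT heads, with a log2 difference of 0.03 (SE 0.05, adjusted p = 0.767).

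RP23-84C12.22, matched to the TEC gene Gm3807, starts 46 bases from Arhgdia. It had 4.75, 5.76 and 5.98 FPKM as lowest, median and highest value in KO heads, against 0.318, 0.233 and 0.362 FPKM in HET heads and 0.165, 0.425, 0.224, 0.411 and 0.268 FPKM in WT heads. The groups do not overlap, and the log2 difference of KO from WT was 3.89 (SE 0.17, limma adjusted p = 1.5e-10). Arhgdia averaged 234 ± 27.8 FPKM in KO heads and 236 ± 10.3 FPKM in WT heads.

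At 2 further divergent loci several HET and WT libraries were listed at 0. RP23-296J10.9 (Gm43969), 266 bases from the histone gene Hist4h4, gave 1.41, 2.97 and 3.68 FPKM as lowest, median and highest value in KO heads, against 0, 0 and 0.118 FPKM in HET heads and 0, 0.0272, 0.0318, 0.0267 and 0 FPKM in WT heads. 3110031N09Rik (chr5:69556557-69556882), 41 bases from Guf1, which encodes a GTPase of the mitochondrion, gave 0.790, 2.34 and 3.76 FPKM in KO heads, against 0, 0.0649 and 0 FPKM in HET heads and 0 FPKM in each WT library but replicate 3, at 0.0881 FPKM. KO values lay above all others at both, and limma gave adjusted p = 1.9e-09 for the first and adjusted p = 8.6e-08 for the second.

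Further divergent loci had log2 differences of 3.2 to 3.78 in KO heads. Like Gm10655 and Gm3807, they were chosen after their values were seen, as being among the 12 largest rises of the divergent loci. They were Gm9889 near S1pr1, Gm44430 near Sec61a1, Gm40332 near Sfswap, Gm10752 near Rab21, Gm49479 near Espl1 and Gm44712 near Ccdc174. Gm9889 had the smallest spread relative to its mean among these in KO heads, with 3.57 ± 0.23 FPKM in KO and 0.171 ± 0.049 FPKM in WT heads (SD, n = 6 and 5). In all 6 of them every KO library lay above every WT library, which the choice of the largest rises favours. This was so in 72 of the 92 divergent loci.

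**Figure D3:**
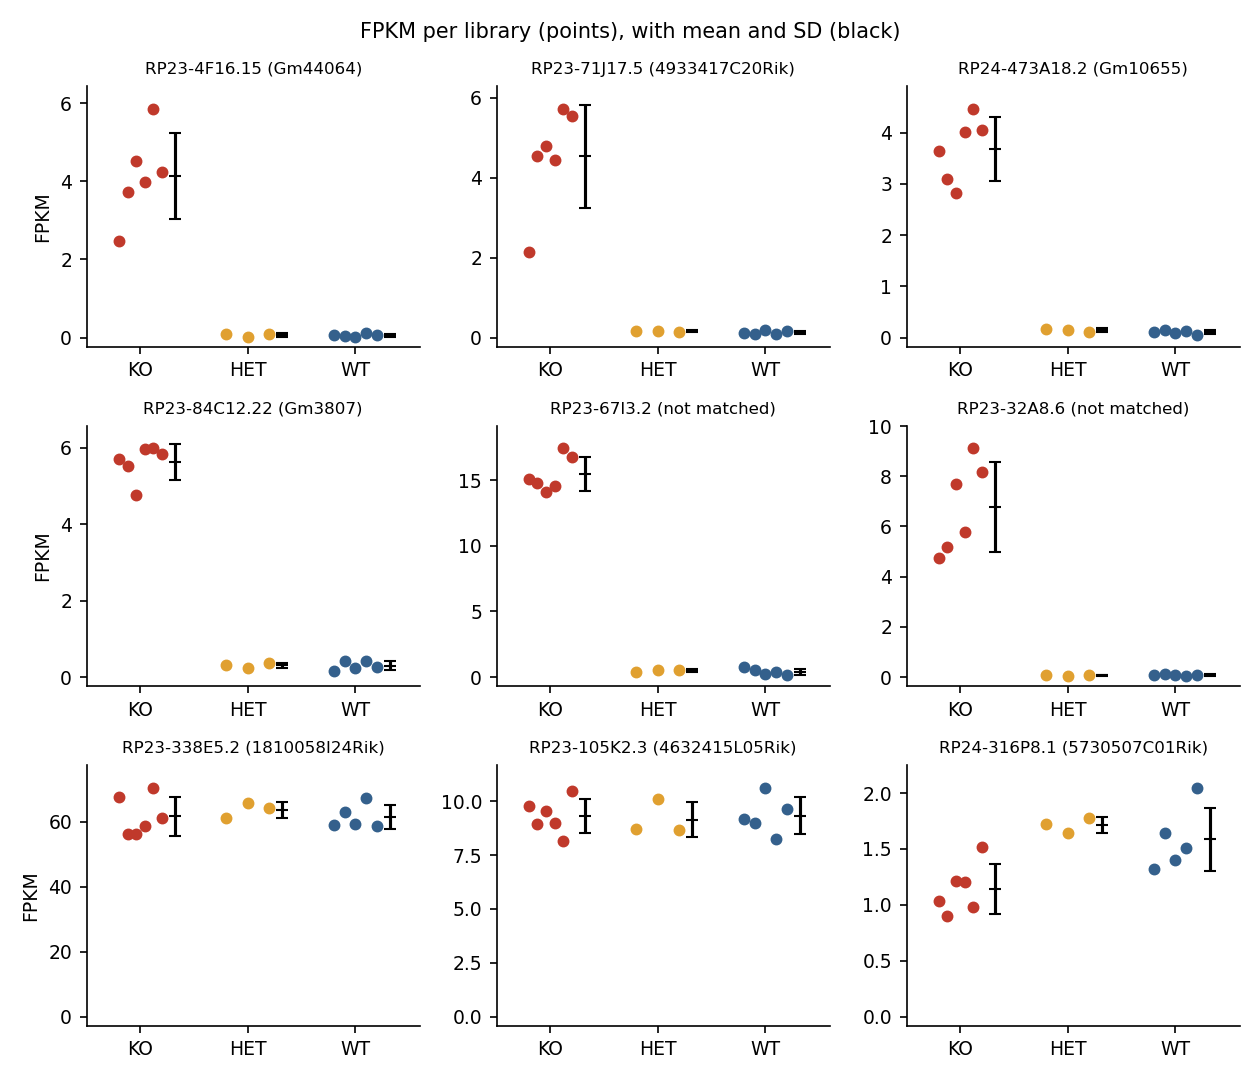
FPKM (vertical axis) of 9 clone-named loci in each KO, HET and WT library (points), with the mean and SD of each group in black. The 6 loci of the upper 2 rows are far higher in KO, with RP23-4F16.15 at 2.47 FPKM or more in every KO library and at 0.12 FPKM or less in every other, while in the bottom row KO and WT overlap.

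The coding genes that share a promoter region with the divergent loci were examined next. For 88 of the 92 the coding neighbour was a single tested locus. The median log2 difference was 1.82 for the 88 clone-named loci and -0.04 for their neighbours, 87 of which lay within 0.5 of 0. In KO heads 81 of the 88 clone-named loci were higher, while 2 of the neighbours were higher and 6 were lower, where 7.07% of all coding loci were higher and 7.42% were lower. The neighbours' median level was 17 FPKM in KO and 16.6 FPKM in WT heads.

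Hist4h4, a replication-dependent histone gene, was the neighbour with the largest difference. It averaged 0.601 ± 0.131 FPKM in KO heads and 0.149 ± 0.0597 FPKM in WT heads, a log2 difference of 1.51 (SE 0.21, limma adjusted p = 3.8e-05). The other higher neighbour was Rab21, a small GTPase of endosomes, with 17.8 ± 0.736 FPKM in KO heads and 15.1 ± 0.431 FPKM in WT heads and a log2 difference of 0.23 (limma adjusted p = 0.00089). Among the lower ones were the neural crest and glial transcription factor gene Sox8, with 4.41 ± 0.668 FPKM in KO and 5.71 ± 0.312 FPKM in WT heads (limma adjusted p = 0.0065), and Skap2, with 3.46 ± 0.483 FPKM in KO and 4.32 ± 0.390 FPKM in WT heads (limma adjusted p = 0.024). The others were Idnk, Camk2g, Klhl29 and S1pr1, with log2 differences of -0.16 to -0.30. S1pr1, the neighbour of Gm9889, averaged 8.59 ± 0.573 FPKM in KO and 9.59 ± 0.264 FPKM in WT heads (limma adjusted p = 0.034).

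**Figure D4:**
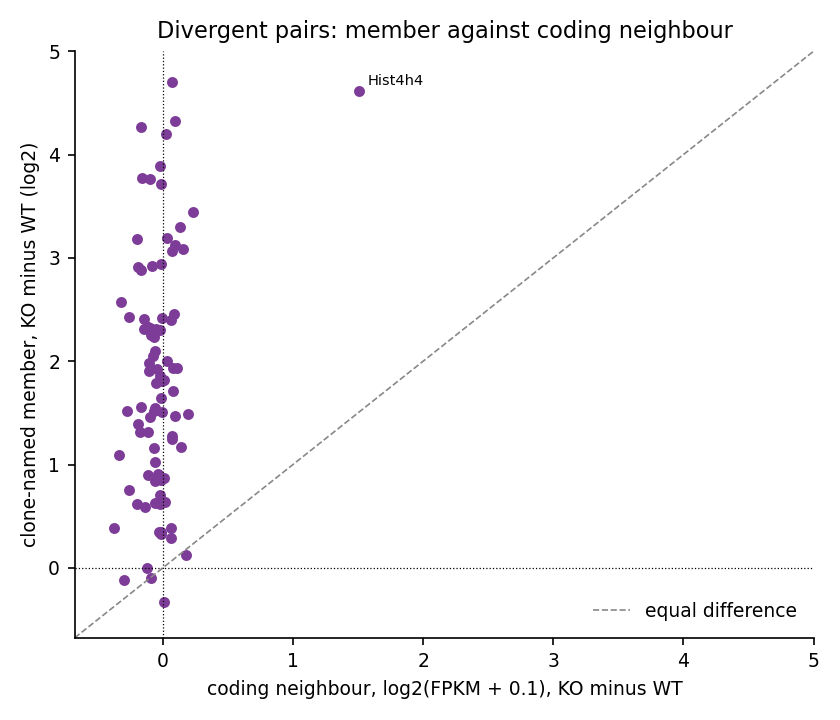
KO minus WT difference on the log2(FPKM + 0.1) scale of 88 divergent clone-named loci (vertical axis) against that of their coding neighbour (horizontal axis), 1 point a pair. The points spread along the vertical axis with a median of 1.82 and stay near 0 on the horizontal axis, with a median of -0.04, except for the pair with Hist4h4.

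Of the 92 divergent loci, 8 were not called higher in KO heads. A430108G06Rik (RP23-188H3.3), which by the GENCODE starts lies 66 bases from the kinesin motor gene Kif3a, gave 0.454, 0.615 and 0.826 FPKM as lowest, median and highest value in KO heads, against 0.376, 0.795 and 0.499 FPKM in HET heads and 0.551, 0.471, 0.747, 0.947 and 0.486 FPKM in WT heads. These values overlap. BC006965 (RP23-349B9.1), 248 bases from Sox9, the chondrocyte and glial transcription factor gene, was lower, with 2.46 ± 0.42 FPKM in KO heads and 3.09 ± 0.26 FPKM in WT heads (log2 difference -0.33, SE 0.11, limma adjusted p = 0.032), and Sox9 itself averaged 36.3 ± 3.22 FPKM in KO and 36 ± 0.806 FPKM in WT heads. This call was lost with the replicate block, with sex as a covariate, with no filter, with the compared groups alone, and without any one of replicates 1, 2, 4 and 6 of KO or 1 and 2 of WT, where the difference stayed between -0.28 and -0.33. On the authors' own normalization its sign was the opposite, with a difference of 0.0793. The other 6 were 4930558J18Rik, 2810032G03Rik near Klhl29, BC051226 near Daxx, 9430021M05Rik near Ptprt, Gm10699 near Erich1 and 5530601H04Rik near Pbdc1, with log2 differences of -0.11 to 0.35. Of these, BC051226 averaged 9.77 ± 1.8 FPKM in KO and 7.62 ± 1.4 FPKM in WT heads, and Gm10699 averaged 2.08 ± 0.18 FPKM in KO and 1.66 ± 0.34 FPKM in WT heads. Both passed the test on the authors' matrix, with library weights and without replicate 3 of WT, and BC051226 also without replicate 3 of KO, whereas Gm10699 differed by -0.065 after quantile normalization.

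The annotated 3′ ends were examined because the exosome works from that end. The last 50 bases of the longest GENCODE transcript are printed for 1 locus that was far higher in KO heads and for 2 whose difference was nearest to 0. Capitals mark the polyadenylation signal AATAAA or ATTAAA, searched on the strand of the transcript.
RP23-71J17.5 (4933417C20Rik): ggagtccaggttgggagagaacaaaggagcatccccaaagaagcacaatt
1810058I24Rik (chr6:35252654-35263496): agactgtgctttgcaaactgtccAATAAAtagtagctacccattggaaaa
RP23-105K2.3 (4632415L05Rik): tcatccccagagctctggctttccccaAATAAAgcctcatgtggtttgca

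Over the whole set the signal did not follow the difference seen in these 3. It was present in 53 of 92 divergent loci (57.6%) and in 96 of 208 matched non-coding loci elsewhere (46.2%). Among those elsewhere it was present in 36 of 79 that were higher and in 60 of 129 that were not. By the same count it was present in 68.8% of GENCODE protein-coding genes, 41% of lincRNA genes and 28.9% of TEC genes.

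Some of the largest differences were at loci that could not be matched to a single gene. RP23-32A8.6 (chr7:73575566-73618393), whose range overlaps the lincRNA gene Gm44734, gave 4.74, 6.73 and 9.11 FPKM as lowest, median and highest value in KO heads, against 0.0834, 0.0444 and 0.0742 FPKM in HET heads and 0.0942, 0.124, 0.0956, 0.0299 and 0.0858 FPKM in WT heads. Its log2 difference of 5.19 (SE 0.19, limma adjusted p = 3.2e-11) was the largest among the 872 at this pseudocount. At a pseudocount of 1 it was 2.81, below the 3.55 of RP23-67I3.2, described next. RP23-67I3.2 (chr1:182405923-182409021), whose range lies 151 bases from the start of Trp53bp2 and holds the TEC gene Gm10517, gave 14.1, 14.9 and 17.4 FPKM in KO heads, against 0.364, 0.548 and 0.563 FPKM in HET heads and 0.763, 0.510, 0.262, 0.373 and 0.161 FPKM in WT heads.

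A locus on chromosome 2 (chr2:30707774-30727323), which shares its range with other loci, had lowest, median and highest values of 2.81, 4.76 and 7.29 FPKM in KO heads, against 0.0346, 0.0798 and 0.0923 FPKM in HET heads and 0.0766, 0.124, 0.0650, 0.173 and 0.175 FPKM in WT heads. RP23-130L13.2 on chromosome 9 had 1.14, 2.09 and 2.88 FPKM in KO heads, against 0, 0.0333 and 0.127 FPKM in HET heads and 0 FPKM in each WT library but replicate 5, at 0.0496 FPKM. The nearest coding start lies 76338 bases from the first range and 231712 bases from the second. RP23-390M8.5 (Gm37817), on the same strand as the RNA-binding protein gene Ybx1 and 857 bases before its start, had 1.58, 3.00 and 4.21 FPKM in KO heads, against 0, 0 and 0.233 FPKM in HET heads and 0 FPKM in each WT library but replicate 1, at 0.0900 FPKM.

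A further set of higher loci was already at 0.5 FPKM or more in at least 3 WT libraries. RP23-235J5.13 and RP23-235J5.14 share 1 range with the RNA-binding protein gene Igf2bp1, so that reads may be divided between these loci in ways the files do not show. RP23-235J5.13 gave 22.7, 25.7 and 30.1 FPKM as lowest, median and highest value in KO heads, against 0.957, 0.919 and 1.72 FPKM in HET heads and 0.751, 1.43, 0.989, 1.48 and 0.602 FPKM in WT heads. RP23-235J5.14 gave 8, 14.5 and 15.7 FPKM in KO heads, against 1.18, 0.929 and 1.07 FPKM in HET heads and 0.908, 0.702, 0.724, 0.517 and 0.394 FPKM in WT heads. At both, all KO libraries stood above all others.

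RP24-423J19.1, whose range holds the DNA primase gene Prim2, averaged 20.4 ± 2.4 FPKM in KO heads and 1.38 ± 0.18 FPKM in WT heads (SD, n = 6 and 5, log2 difference 3.79, SE 0.11, limma adjusted p = 5.2e-12). RP23-158C15.8, whose range holds Bclaf1, averaged 8.51 ± 1.3 FPKM in KO and 0.520 ± 0.063 FPKM in WT heads (log2 difference 3.79, SE 0.12, limma adjusted p = 7.2e-12). RP23-423J10.6 lies in a long range that 12 loci share and that holds Sox2, a transcription factor gene of neural progenitors, and averaged 9.31 ± 1.4 FPKM in KO and 0.848 ± 0.21 FPKM in WT heads. RP23-170I24.2, whose range lies 218 bases from the start of Zmym5 and holds the bidirectional promoter lncRNA gene 2410022M11Rik, averaged 12.7 ± 1.6 FPKM in KO and 2.0 ± 0.22 FPKM in WT heads.

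The most abundant clone-named loci did not pass the test. RP23-123N23.5, matched to Atp5mpl, which encodes a small subunit of mitochondrial ATP synthase, averaged 225 ± 20 FPKM in KO heads and 220 ± 18 FPKM in WT heads. RP23-83I13.10, matched to 6330403K07Rik, averaged 160 ± 5.9 FPKM in KO heads and 148 ± 8.6 FPKM in WT heads (log2 difference 0.12, limma adjusted p = 0.06). The lincRNA 2900097C17Rik averaged 80.4 ± 6.2 FPKM in KO heads and 82.3 ± 3.2 FPKM in WT heads, and RP23-359B23.5 averaged 134 ± 26 FPKM in KO heads and 127 ± 12 FPKM in WT heads.

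The 3 loci with differences nearest to 0, at a mean of at least 1 FPKM, were lincRNA genes. 1810058I24Rik, which is also known to encode a small mitochondrial peptide, averaged 61.7 ± 6 FPKM in KO heads and 61.4 ± 3.7 FPKM in WT heads. 4632415L05Rik (RP23-105K2.3) averaged 9.32 ± 0.8 FPKM in KO heads and 9.34 ± 0.87 FPKM in WT heads, and Gm29296 (RP24-149G13.1) averaged 1.1 ± 0.35 FPKM in KO heads and 1.07 ± 0.19 FPKM in WT heads. The SE of these differences on the log2 scale was 0.06, 0.08 and 0.22 in the same order.

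The 10 loci lower in KO heads had differences from -0.31 to -1.54 on the log2 scale. RP23-410L16.8, whose range holds Pik3r2 and Mast3 among other genes, gave 0, 0.525 and 0.716 FPKM as lowest, median and highest value in KO heads, against 1.17, 1.05 and 1.30 FPKM in HET heads and 1.43, 0.999, 1.20, 1.06 and 1.38 FPKM in WT heads (log2 difference -1.54, SE 0.42, limma adjusted p = 0.013). The KO values lay below all others. RP23-344H4.1 averaged 0.718 ± 0.27 FPKM in KO heads and 1.34 ± 0.12 FPKM in WT heads, and RP24-78F21.4 averaged 10.3 ± 0.82 FPKM in KO heads and 13.4 ± 1.3 FPKM in WT heads. RP23-159L13.1 averaged 17.9 ± 1.9 FPKM in KO heads and 22.7 ± 0.91 FPKM in WT heads.

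Of these 10, 4 lie on chromosome 12 between 17 and 26 Mb. They are RP23-344H4.1, the pseudogene Gm20472 (RP23-339D20.2), 5730507C01Rik (RP24-316P8.1) and 9030624G23Rik (RP23-6A9.2). In that stretch 11 clone-named loci were tested, of which 1 was higher and 4 were lower, and of all 57 loci tested there 7 were higher and 6 were lower. 5730507C01Rik gave 0.901, 1.12 and 1.52 FPKM as lowest, median and highest value in KO heads, against 1.73, 1.64 and 1.77 FPKM in HET heads and 1.32, 1.64, 1.40, 1.51 and 2.05 FPKM in WT heads, so that KO and WT overlap. On the authors' matrix 5730507C01Rik did not pass the test and 9030624G23Rik had the opposite sign. The call of 5730507C01Rik was also lost without replicate 2 of KO or replicate 2 or 5 of WT, and that of 9030624G23Rik without replicate 1 or 2 of WT. The other lower loci were RP23-143D11.2 and Zfp108 (RP24-84I4.2), besides BC006965 described above. Under all 4 scalings, 3 of the 10 were lower.

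HET heads were compared with WT heads to ask whether a single allele changed these RNAs. No clone-named locus passed the test in HET heads (limma, 0 higher and 0 lower), where 0.00549% of all loci tested were higher and 0% were lower. Zcchc8 itself did not pass either, although every HET library lay below every WT library. Its log2 difference of HET from WT was -0.62 (SE 0.18, two-sided exact permutation p = 0.0179). With 3 HET libraries the test missed this difference, so that the lack of calls does not show that a single allele left these RNAs unchanged. At an unadjusted p under 0.05 there were 37 of the 872, against 1.94% of all loci. The median log2 difference of the 872 was -0.01.

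The 2 loci with the smallest p in HET heads were above WT in each HET library. RP24-423J19.1 gave 2.26, 1.65 and 2.41 FPKM in HET heads, against 1.26, 1.5, 1.58, 1.41 and 1.15 FPKM in WT heads, a log2 difference of 0.57 (SE 0.13, limma adjusted p = 1). The lincRNA Gm36738 (RP23-79F10.11) gave 0.960, 0.654 and 0.674 FPKM in HET heads, against 0.144, 0.326, 0.170, 0.371 and 0.246 FPKM in WT heads, a log2 difference of 1.32 (SE 0.32, limma adjusted p = 1). Its KO values, from 0.504 to 1.46 FPKM, overlap the HET values, and the difference of KO from HET was 0.16 (limma adjusted p = 0.784).

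KO heads against HET heads gave 367 clone-named loci higher and 11 lower, where 17.9% of all loci tested were higher and 4.36% were lower. The median log2 difference was 0.49. After quantile normalization 210 were higher and 153 lower, while among all loci tested more were lower than higher. Without replicate 3 of HET 2 clone-named loci were lower in place of 11. This comparison shares its KO libraries with that of KO against WT.

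Levels were also compared library by library. The median deviation of the 92 divergent loci from their WT mean lay between 1.49 and 2.01 on the log2 scale in KO libraries, between -0.02 and 0.04 in HET libraries and between -0.10 and 0.03 in WT libraries. Their summed level was 197 to 260 FPKM in KO, 90.4 to 94.2 FPKM in HET and 89.7 to 95.4 FPKM in WT libraries. Between 71 and 89 of the 92 reached 0.5 FPKM in a KO library, between 31 and 35 in a HET library and between 30 and 34 in a WT library. Over all 872 loci, 671 to 775 reached that level in KO, 467 to 520 in HET and 480 to 524 in WT libraries, and 11 to 24 were listed at 0 in KO, 41 to 49 in HET and 43 to 53 in WT libraries.

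The size of the difference varied among KO libraries. Replicate 1 of KO had the lowest median deviation, 1.49, and also the lowest Zcchc8 level, 9.27 FPKM, and the lowest relative depth of the KO libraries, 1.15. Replicate 5 of KO had the highest median deviation, 2.01, with the highest Zcchc8 level of the KO libraries, 20.6 FPKM, and a relative depth of 1.36. The highest relative depth, 1.495, was that of replicate 4 of KO, with a median deviation of 1.76. A relation of the deviation to depth or to the Zcchc8 level was not tested.

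**Figure D5:**
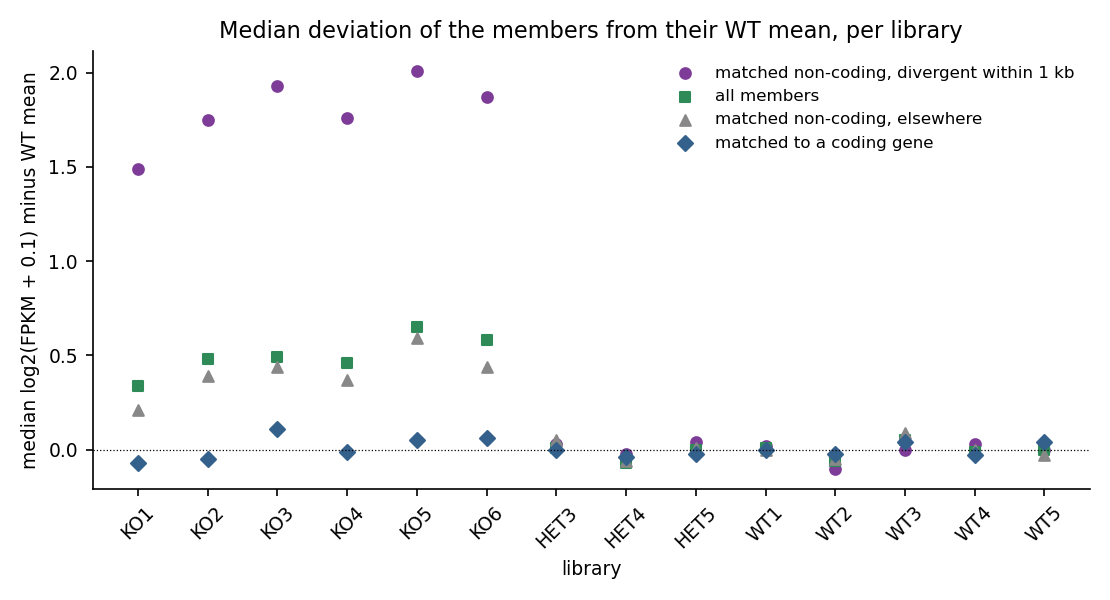
Median deviation from the WT mean on the log2(FPKM + 0.1) scale (vertical axis) of 4 sets of clone-named loci in each library (horizontal axis). The divergent loci lie at 1.49 to 2.01 in the 6 KO libraries and near 0 in HET and WT, while loci matched to coding genes stay near 0 in all 14 libraries.

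At the edge of the level that chose the loci, RP24-260F19.3 and RP23-142N2.1 were just inside, with a third-highest library of 0.5 and 0.502 FPKM. RP24-445D7.2 and RP23-396C19.1 were just outside, at 0.499 FPKM each. RP24-445D7.2 had 0.169 to 0.592 FPKM in KO and at most 0.0949 FPKM in WT libraries.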

How the data were processed

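RNA from 14 heads was sequenced from stranded mRNA libraries, per the labels' protocols. Per the submitters' processing notes, the build was mm10 and the tools included Cuffdiff, Partek, TopHat2 2.1.0, FastQC 0.10.0 and bcl2fastq, listed with no role. Gene models and the strand setting used in counting are not stated. The authors deposited 1 table of FPKM per library, scaled for length and library by their software, and 1 matrix of log2 FPKM values. The deposited log2 values share their quartiles across libraries and are blank where the FPKM is 0. No counts are among these files, so that relative depth was estimated from the smallest values and no counting interval can be given.

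Loci at 0.5 FPKM in at least 3 libraries were tested with limma 3.58.1 (trend and robust moderation) on log2(FPKM + 0.1), with 1 mean per genotype over all 14 libraries, Benjamini-Hochberg adjustment over all 18217 loci and a threshold of 0.05. A difference on this scale understates the change of low loci. The test was checked on simulated data. A locus was matched to a GENCODE M21 gene when its range was its own and overlapped exactly 1 gene, at least 50% of which lay inside.

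The members and lists were chosen with earlier results of these data known. The members described are the 10 largest rises with a KO mean of at least 1 FPKM, the 5 largest falls, the 5 highest, the 2 with the smallest p in HET, the 6 largest rises among loci at 0.5 FPKM in at least 3 WT libraries, the 3 nearest to 0 and those at the threshold, and 20 more were picked after their values were seen. Alternatives were other pseudocounts, filters, scalings, sex as a covariate, library weights, a replicate block and leaving out each library. The summed markers of muscle were 26.0 to 103 FPKM in KO and 72.5 to 130 FPKM in WT heads, and those of cartilage were 23.3 to 51.6 FPKM in KO and 41.9 to 79.5 FPKM in WT heads.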

Additional observations from a re-analysis of the deposited data

Results flagged for a closer look

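Among 102 groups of 5 or 6 libraries of described loci, 14 held a library whose gap to the nearest other, as a share of the whole range on the log2(FPKM + 0.1) scale, passed Dixon's 95% value. Chance gives about 1 in 20. Replicate 1 of KO was the low library at 4 divergent loci, with gap shares of 0.651 for RP23-296J10.9, 0.737 for RP23-71J17.5, 0.732 for RP24-81J14.1 and 0.707 for RP24-191L21.2. At RP23-71J17.5 it had 2.15 FPKM, where the other KO libraries had 4.44 to 5.73 FPKM.

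Replicate 3 of KO was low at RP23-235J5.14 (gap share 0.712) and RP23-84C12.22 (0.654), and high at RP23-159L13.1 (0.671), where it had 21.6 FPKM and the other KO libraries had at most 17.8 FPKM. Replicate 6 of KO was high at RP23-6A9.2 (0.634), and replicate 2 of KO at RP24-497H18.4 (0.688).

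In WT, replicate 1 was low at RP23-123N23.5 (0.714) and high at RP24-77I21.2 (0.713). At 3 loci a single WT library had a value above 0 and the gap share was 1. They were RP23-390M8.5 in replicate 1, RP23-130L13.2 in replicate 5 and 3110031N09Rik in replicate 3.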

How the results depend on the processing

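The main count of 388 clone-named loci higher in KO than in WT became 228 after quantile normalization, 213 under a stricter filter that left 498 members and 130 with the level read in WT alone, an alternative chosen after seeing the data. The 10 lower became 18 with library weights and 196 after quantile normalization. Quantile normalization placed the medians of the 872 and of all loci tested at -0.05. For KO against HET the 367 higher became 210 after quantile normalization and 214 under the stricter filter. The 11 lower became 7 on the authors' matrix, 19 with library weights, 7 without a filter, 7 with the compared groups alone and 153 after quantile normalization. The 84 divergent loci higher became 55 after quantile normalization and 46 under the stricter filter, which left 53. The cause of these shifts was not tested beyond the loci each filter removes. Under all 4 scalings 207 members were higher, 3 lower, and 51 divergent loci higher. No count under all 4 scalings is given for all loci tested. On the authors' matrix the median of all loci was 0.20, that of 822 members 0.52 and that of 86 divergent loci 1.92. There 412 of the 822 members were higher in KO than in WT. In the main fit 44.5% of the 872 members and 19% of all loci tested were higher. On the authors' matrix the share of all 17141 loci called higher rose far more than that of the members, and stood much nearer to it. Most of the excess of the members over all loci in the main fit was therefore lost on that matrix.

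Leaving out each library gave 369 to 401 members higher and 9 to 17 lower for KO against WT (17 without replicate 3 of KO), 318 to 382 higher and 2 to 13 lower for KO against HET (2 without replicate 3 of HET, 5 without replicate 4 or 5), and 78 to 84 divergent loci higher. Counts for HET against WT were 0 under every alternative run. Differences changed sign on the authors' matrix for RP23-105K2.3 (0.34), RP23-349B9.1 (0.0793) and RP23-6A9.2 (0.0812), and after quantile normalization for RP24-149G13.1 (-0.66). The replicate block gave 361 members higher and 12 lower for KO against WT, and 75 divergent loci. Correlations of the deviations were -0.114 to 0.10 in 11 pairs of libraries with the same number. They were -0.115 to 0.106 in 52 pairs with different numbers. These values gave no sign of pairing, but could not exclude a shared effect that is weak or limited to some loci.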

Other observations

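The divergent locus 5530601H04Rik (RP23-250A14.2), an X-linked processed transcript near Pbdc1, did not pass the test between genotypes but separated the libraries by the presence of Xist RNA. Its level was 17.1 to 19.6 FPKM in the 4 KO libraries with Xist and 14.6 to 15.2 FPKM in the 2 KO libraries without it. In HET heads it was 18.4 and 19.4 FPKM in the 2 libraries with Xist and 12.9 FPKM in the other. In WT heads it was 20.5 and 21.0 FPKM in the 2 libraries with Xist and 12.4 to 13.9 FPKM in the 3 without it. No library without Xist reached the level of a library with it. The split was seen in the values and was not tested.

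At the divergent locus Gm44430 (RP23-49L8.4) near Sec61a1, the HET libraries had 0.366, 0.469 and 0.490 FPKM and the WT libraries had 0.321, 0.103, 0.222, 0.245 and 0.164 FPKM, and the groups do not overlap. The log2 difference of HET from WT was 0.84 (SE 0.23, limma adjusted p = 1). BC006965 had 2.3, 2.13 and 2.31 FPKM in HET and 3.35, 3.39, 2.85, 2.93 and 2.93 FPKM in WT libraries, a log2 difference of -0.44 (SE 0.13, limma adjusted p = 1).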
